A study of Mus musculus with 10 samples.

Results

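The 9 genes described here were the imprinted growth network genes Igf2, H19, Dlk1, Meg3, Cdkn1c, Plagl1, Peg3, Grb10 and Mest, 9 of the 27040 genes that all 10 libraries list. They were matched by gene symbol and had been chosen on their own levels in these libraries, by cell class, stage and genotype, so those levels are given as a description with no test. Every one of the 9 was measured and passed the filter on low counts in every fit. Levels are given as CPM, the UMIs (unique molecular identifiers, which count captured RNA molecules) of a gene in every 1000000 UMIs of a cell class in a library. They are not compared between genes.

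An imprinted gene is expressed from the copy inherited from 1 parent only. Igf2, Dlk1, Plagl1, Peg3 and Mest are known as paternally expressed, and H19, Meg3, Cdkn1c and, in most tissues, Grb10 as maternally expressed. Many imprinted genes act on the growth of the embryo, and the paternally expressed ones are often growth promoting while Cdkn1c and Grb10 restrain growth. In embryonic skin the dermal mesenchyme, the vessels and the growing muscle are the tissues in which such genes are best known. The counts here join both parental copies, so they say nothing of which copy was read.

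The libraries were single-cell RNA-seq of total mouse back skin, with conditional knockout (cKO) animals and wild-type or heterozygous littermates as Control on a mixed C57Bl/6J and CD-1 background. Stage E15.5 was covered by 2 libraries of Control and 2 of MOF cKO animals (labels MOFfl/fl/K14Cre), E16.5 by the same numbers, and E17.5 by 1 Control and 1 QPC cKO library (QPCfl/fl/K14Cre). The K14Cre driver acts in the epithelium, so fibroblasts, endothelial cells and pericytes are not its target. The floxed gene is Kat8 for the histone acetyltransferase MOF and Uqcrq for the respiratory complex subunit QPC. By staining for the histone mark that MOF lays down, the study describes the E15.5 MOF cKO replicate 5 animal as evenly depleted and the replicate 6 animal as mosaic. Kat8 in the epithelial class was 13.0 and 14.0 CPM in the E15.5 controls against 13.0 and 10.0 in the cKO libraries, and 17.6 and 14.8 against 8.66 and 3.75 at E16.5. Uqcrq in the epithelial class was 106 in the E17.5 control and 43.9 in the QPC cKO. Kat8 RNA thus did not mark E15.5 MOF cKO replicate 5 as depleted, and in the E16.5 cKO libraries it rested on 5 and 3 UMIs. Whether the counted 3′ end lies in the deleted part was not checked. The droplet kit (v3.1 at E15.5, v2 at E16.5, v3 at E17.5) and the gene list differed by stage, so stage and chemistry cannot be told apart.

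After the filter on genes per cell and mitochondrial share, 716 to 10653 cells per library remained with median depths of 9600 to 22340 UMIs. They held 32692 fibroblast cells (Col1a1 and Col3a1 together at least 30 UMIs, Krt5 and Krt14 under 10), 13318 epithelial cells (Krt5 and Krt14 at least 10), 884 endothelial cells (at least 2 of Pecam1, Cdh5 and Kdr) and 1645 pericytes (Rgs5 at least 3, Cdh5 at 0). Marker genes that the gates did not use ranked as the names say: the 4 fibroblast check genes Col1a2, Lum, Pdgfra and Dpt summed to 7996 to 18961 in fibroblasts and to 230.2 to 8496 in epithelial cells. The upper end of that last range was the E17.5 control, whose epithelial gate carried fibroblast RNA. The 4 endothelial check genes summed to 1277 to 2178 in endothelial cells and to 17.3 to 26.5 in fibroblasts. The 4 pericyte check genes summed to 903.5 to 1536 in pericytes, and 871 cells passed both the fibroblast and the pericyte gate. The epithelial class of the E16.5 MOF cKO libraries held 30 and 39 cells, and E16.5 endothelial cells numbered 11 to 60. The E17.5 libraries shared 1702 barcodes, 20.7% of the smaller library, with 160 and 41 kept cells affected.

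The 9 genes lie on 5 chromosomes (GRCm38), and several are neighbours. On chromosome 7, H19 (142575529 to 142578143) lies 72.6 kb from Igf2 (142650766 to 142666816), and Cdkn1c (143458339 to 143461050) lies 792 kb from Igf2, all on the minus strand. On chromosome 12, Dlk1 (109452823 to 109463336) and Meg3 (109541001 to 109571726) lie 77.7 kb apart on the plus strand. Peg3 (chromosome 7, 6703892 to 6730431), Plagl1 (chromosome 10, 13060504 to 13131694), Grb10 (chromosome 11, 11930508 to 12038683) and Mest (chromosome 6, 30723547 to 30748465) stand alone. Igf2, H19, Meg3 and Mest each hold a microRNA hairpin in an intron or exon (Mir483, Mir675, Mir770 and Mir335), which these 3′ counts do not measure.

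Promoters of 7 of the 9 genes were matched in RefSeq (GRCm38.p6), 14 windows of 250 bases before the annotated start. The 4 shown are those of the neighbouring pair Dlk1 and Meg3, of Igf2, whose profile was nearest to the whole set over fibroblast cells, and of Peg3, whose profile was farthest. They lie at chr7:142658805-142659054 on the minus strand for Igf2, chr12:109452573-109452822 on the plus strand for Dlk1, chr12:109540746-109540995 on the plus strand for Meg3 and chr7:6730420-6730669 on the minus strand for Peg3. Capitals mark matches, on either strand, to GGGGCCCC, TATAAA, GCCATNTT or CCAAT.
Igf2: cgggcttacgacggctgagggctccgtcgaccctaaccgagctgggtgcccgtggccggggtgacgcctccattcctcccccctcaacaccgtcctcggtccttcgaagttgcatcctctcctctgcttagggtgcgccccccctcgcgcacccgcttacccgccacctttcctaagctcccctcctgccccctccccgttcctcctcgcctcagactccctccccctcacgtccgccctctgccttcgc
Dlk1: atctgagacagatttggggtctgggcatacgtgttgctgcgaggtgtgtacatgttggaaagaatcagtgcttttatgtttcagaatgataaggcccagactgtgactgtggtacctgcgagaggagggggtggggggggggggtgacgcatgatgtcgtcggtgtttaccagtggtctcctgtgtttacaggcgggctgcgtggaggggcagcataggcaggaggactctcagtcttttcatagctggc
Meg3: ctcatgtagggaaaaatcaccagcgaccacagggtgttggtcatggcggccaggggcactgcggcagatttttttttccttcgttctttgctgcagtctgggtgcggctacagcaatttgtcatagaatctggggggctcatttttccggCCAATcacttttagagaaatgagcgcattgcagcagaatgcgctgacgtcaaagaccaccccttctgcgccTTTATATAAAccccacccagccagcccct
Peg3: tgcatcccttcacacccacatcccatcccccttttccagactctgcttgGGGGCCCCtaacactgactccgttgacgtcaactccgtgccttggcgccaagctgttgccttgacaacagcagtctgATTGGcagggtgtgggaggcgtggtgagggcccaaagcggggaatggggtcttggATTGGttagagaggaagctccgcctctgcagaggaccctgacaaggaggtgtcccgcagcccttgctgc
The Meg3 window held TATAAA 29 and 25 bases before the start as overlapping matches on both strands, and CCAAT at 100 bases. The Peg3 window held GGGGCCCC at 201 bases and CCAAT, on the other strand, at 124 and 69. Over all 14 windows, 1 held GGGGCCCC against 0.889% of 32851 windows of the same length genome-wide, 1 held TATAAA against 12.4%, 3 held CCAAT against 33.8% and 0 held GCCATNTT against 3.91%. The Dlk1 and the Igf2 window shown held none of these letters. The Igf2 window shown held 22 CpG dinucleotides and the Dlk1 window 8, where the genome-wide median was 6. It was the richest in CpG of the Igf2 windows. The others held 10, 6 and 1, and the one with 6 also held CCAAT. None of the 4 motifs was present in the windows of all 7 genes.

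By cell class, some of the genes were highest in fibroblasts, some in endothelial cells and some in both. Cdkn1c, the cyclin-dependent kinase inhibitor p57, and Peg3, a zinc finger protein, were highest in fibroblasts in 10 of 10 libraries among the 4 classes. Fibroblast Cdkn1c ran from 1305 over a median of 1952 to 3567 CPM, above its highest level in endothelial cells (697.1) and pericytes (478.7), and above the epithelial maximum of 1167. Fibroblast Peg3 ran from 530.1 over 992.5 to 1396, and its endothelial, pericyte and epithelial maxima were 562.6, 227.3 and 530.9. For Cdkn1c the fibroblast range did not meet that of another of these classes, and for Peg3 it met the endothelial and epithelial ranges at its low end, an E16.5 control.

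Dlk1, a transmembrane protein related to Notch ligands, and Meg3, a long noncoding RNA, were high in both fibroblasts and pericytes. Each was highest in fibroblasts in 8 libraries and in pericytes in 2. Fibroblast Dlk1 ran from 840.5 over 2436 to 5847 and pericyte Dlk1 from 760.6 over 2124 to 3452. Fibroblast Meg3 ran from 2429 over 3434 to 7081 and pericyte Meg3 from 1779 over 2582 to 4151. The fibroblast and pericyte ranges overlapped for both genes, so their order did not hold beyond the spread of libraries. In endothelial cells Dlk1 was 45.1 to 1100, with the highest value in an E16.5 MOF cKO library. These values included cells that also passed the fibroblast gate, and with cells of exactly 1 class the E16.5 cKO libraries held 97.1 and 313.2 and the E15.5 libraries 6.395 to 29.0.

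Mest, a protein of the alpha/beta hydrolase fold, was highest in endothelial cells among the 4 classes. Endothelial Mest ran from 1783 over 2179 to 3828 and was the highest of the 4 in 10 of 10 libraries, at 202% to 903% of the fibroblast level of the same library. The Mfap5, Dpp4 and Pi16 fibroblasts described below, a small part of the fibroblast class, held 1181 to 1957, within reach of the endothelial range, and in E16.5 MOF cKO replicate 2 they held 1823 against 1783 in endothelial cells. Fibroblast Mest over the whole class ran from 250.6 to 882.6 and pericyte Mest from 266.1 to 747.7, with overlapping ranges. Grb10, the adaptor that inhibits insulin and IGF receptors, and Plagl1, a zinc finger transcription factor, were highest in endothelial cells in 8 of 10 libraries each. Endothelial Grb10 was 171.7 to 393.2 against 157.7 to 230.9 in fibroblasts and 138 to 240.2 in pericytes, so the classes overlapped. Endothelial Plagl1 was 258.3 to 367.8, fibroblast Plagl1 121.6 to 410.5 and pericyte Plagl1 19.6 to 52.2, the last apart from both.

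Igf2, the growth factor ligand, and H19, the long noncoding RNA beside it, were shared by endothelial cells and fibroblasts. Igf2 was highest in endothelial cells in 7 libraries and in fibroblasts in 3, and H19 in 6 and 4. Endothelial Igf2 ran from 460.4 over 723.2 to 1265 and fibroblast Igf2 from 359.8 over 619.5 to 1369. Endothelial H19 ran from 667.5 over 844.4 to 1533 and fibroblast H19 from 439.8 over 884.6 to 3739. Pericyte Igf2 and H19 were lower, at 107.8 to 394.7 and 169 to 574.3. Epithelial H19 was above fibroblast H19 in the E15.5 controls, at 483.2 and 535.7 against 439.8 and 448.9, and below it in every other library.

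**Figure D1:**
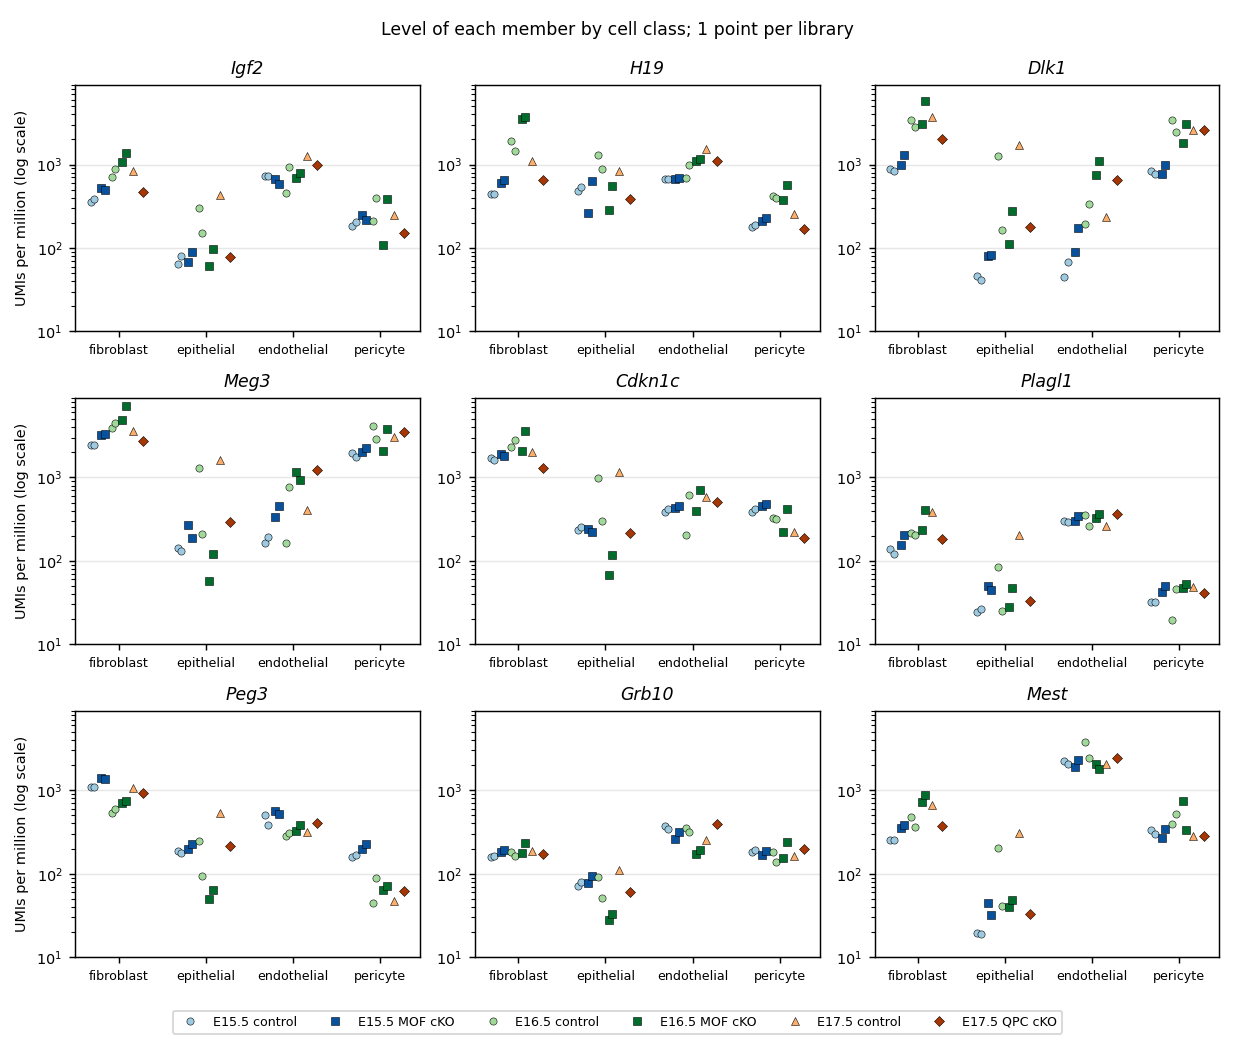
Level of each gene in CPM (log axis), with 1 point per library in the fibroblast, epithelial, endothelial and pericyte classes. Cdkn1c and Peg3 stood highest in fibroblasts, Mest in endothelial cells, and Dlk1 and Meg3 in fibroblasts and pericytes.

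Among the epithelial cells the level has to be read beside that of fibroblast genes, whose RNA this class also held. Dlk1 fell where cells with at least 30 Col1a1 and Col3a1 UMIs were left out. In E15.5 control replicate 2 it was 46.7 over 2635 epithelial cells and 8.92 over the 2462 with under 30. In the E17.5 control it was 1713 over 3069 cells and 163.6 over 1783. Whether free RNA or droplets of mixed cells brought this RNA was not tested. Col1a2, Lum and Pdgfra in the epithelial class were at a median of 5.68%, 5.63% and 5.37% of their fibroblast level in the same library, and up to 45.2%, 42.5% and 43.3% in the E17.5 control. Dlk1 at 6.05%, Meg3 at 5.69% and Mest at 8.61% were near these values. H19 at 64.6% and Grb10 at 43.9% were well above them, and Igf2 (17.6%), Peg3 (16.2%) and Cdkn1c (13.2%) lay between, as did Plagl1, which ranged from 11.6% to 52.5%. Epithelial H19 ran from 265.3 over 543.4 to 1312 CPM, and with each cell reduced to 3000 UMIs, leaving out 33 epithelial, 5 macrophage and 5 mast cells, a median of 63.0% of epithelial cells held an H19 UMI, against 24.2% of macrophages and 6.16% of mast cells. Without that reduction the shares were 91.9%, 65.8% and 23.1% at median depths of 19113, 15058 and 14783 UMIs. Epithelial Dlk1, Meg3 and Mest are therefore not read as expression.

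Of the 5 smaller classes, the myogenic cells (Myod1, Myog and Myf5 together at least 2 UMIs) carried the highest Cdkn1c of any class at 9302 to 10976 over 7 libraries, with 664 cells in all. They also held all the other 8 genes, for example Meg3 at 2209 to 3042, Dlk1 at 726.2 to 3091, Grb10 at 320.3 to 493 and Igf2 at 585 to 1212. Schwann-like cells held Meg3 at 645.9 to 1561, Mest at 298.4 to 514.7 and Grb10 at 255.2 to 341.3, while Plagl1 stayed at 2.49 to 7.84. Melanocytes held Grb10 at 122.6 to 193.2 and Plagl1 at 18.7 to 108.5, with Mest at 6.18 to 14.6. In macrophages and mast cells the medians of the genes other than H19 and Cdkn1c were at most 41.1.

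In fibroblasts, most of the 9 genes differed between the E15.5 and E16.5 controls. Meg3 was 2466 and 2429 in the E15.5 controls, 3916 and 4468 in the E16.5 controls and 3563 in the E17.5 control. Dlk1 was 874 and 840.5 at E15.5, 3402 and 2838 at E16.5 and 3668 at E17.5. H19 was 440 and 449 at E15.5, 1925 and 1457 at E16.5 and 1112 at E17.5. For these genes the E15.5 controls were the lowest. Peg3 went the other way at E16.5, with 1099 and 1106 in the E15.5 controls, 530.1 and 603 at E16.5 and 1066 at E17.5. Grb10 overlapped, with 158 and 165 at E15.5 and 180 and 162 at E16.5, and ran from 157.7 to 187.1 over the 5 controls. Since the kit changed with every stage, these are differences between sets of libraries and were not tested.

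At E15.5 the fibroblast levels of these genes lay higher in the libraries labelled MOF cKO than in the controls, of which replicate 6 came from the mosaic animal. Both cKO libraries lay above both controls for 9 of 9 genes, which 26.1% of the 7939 genes of at least 10 CPM did (24.3% lay below), and the genes had been chosen on this contrast, so nothing is read from the count. General fibroblast genes moved with them: Col1a2 was 6398 and 6311 in the controls against 8002 and 8530 in cKO, Pdgfra was 125 and 129 against 165 and 162, and Lum was 1648 and 1646 against 1710 and 1836, while Dpt overlapped. The part of that in the members' values was not tested. Igf2 was 360 and 389 in the controls against 522 and 500.3 in the cKO libraries. H19 was 440 and 449 against 598 and 649, and Mest was 251 and 253 against 357 and 380. Every cKO value of these 3 genes was above both controls, and the controls differed from each other by less than the cKO libraries did from them. Peg3 was 1099 and 1106 against 1396 and 1369.6, and Meg3 was 2466 and 2429 against 3234 and 3305. Dlk1 was 874 and 840.5 against 994 and 1297, and Plagl1 was 140 and 122 against 156 and 203. The smallest differences were those of Grb10, 158 and 165 against 183 and 190.3, and Cdkn1c, 1691 and 1637 against 1910 and 1818. The mean ratios of cKO to control ran from 1.12 for Cdkn1c to 1.46 for Mest, where Mest was 369 ± 16.4 in cKO and 252 ± 1.97 in controls (SD, n = 2 each).

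Over all genes at E15.5, the edgeR quasi-likelihood test with Benjamini-Hochberg adjustment called 0% of the 16268 genes tested as higher and 0% as lower, while 2538 had an unadjusted p under 0.05, and DESeq2 called 494. The median log2 fold change of the 9 was 0.39 and that of all genes 0.00, and no test of the 9 is given. The p-values of the MOF cKO comparisons measure the spread between these libraries, 2 a group, which may be technical in part. Those of the divisions of cells below, with library as a block, measure the spread of differences within libraries.

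At E16.5 the cKO to control ratios in fibroblasts were highest for H19 and Mest. H19 was 1925 and 1457 in the controls against 3472 and 3739 in the cKO libraries, a ratio of 2.13, and Mest was 473 and 364 against 719 and 883, a ratio of 1.91. The ratio was above that of E15.5 for all genes but Cdkn1c, a difference that was not tested and cannot be told apart from the change of kit. Igf2 was 717 and 879.5 against 1076 and 1369. Both cKO libraries were above both controls for these 3, for Meg3 (3916 and 4468 against 4924 and 7081), Peg3 (530.1 and 603 against 707 and 746) and Plagl1 (214 and 204 against 235 and 410.5), 6 of 9, where 14.7% of 7774 genes did so and 42.2% lay below. Dlk1 was 3402 and 2838 against 3081 and 5847, Cdkn1c 2316 and 2811 against 2071 and 3567, and Grb10 180 and 162 against 176 and 230.9. For these last 3 the cKO libraries lay on both sides of a control, with replicate 2 the high one. That library also held more of the Mfap5, Dpp4 and Pi16 fibroblasts described below, 7.50% of its fibroblasts against 1.54% in replicate 1 and 6.24% and 5.02% in the controls, and cycling cells were 17.2% and 14.6% of fibroblasts in cKO against 34.2% and 38.5% in the controls. Col1a2 was 6539 and 5734 in the controls against 7918 and 8433 in cKO, and Pdgfra 96.4 and 77.8 against 233 and 134, while Lum was lower in cKO. The part of these in the values was not tested.

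Over all genes at E16.5, the edgeR quasi-likelihood test with Benjamini-Hochberg adjustment called 2.43% of 12569 genes higher and 2.21% lower. Without control replicate 2 it called 0 genes, and without MOF cKO replicates 1 and 2 it called 138 and 187. Each level sums all fibroblasts of a library, so a larger share of high cells and more RNA in each cell cannot be told apart from it.

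**Figure D2:**
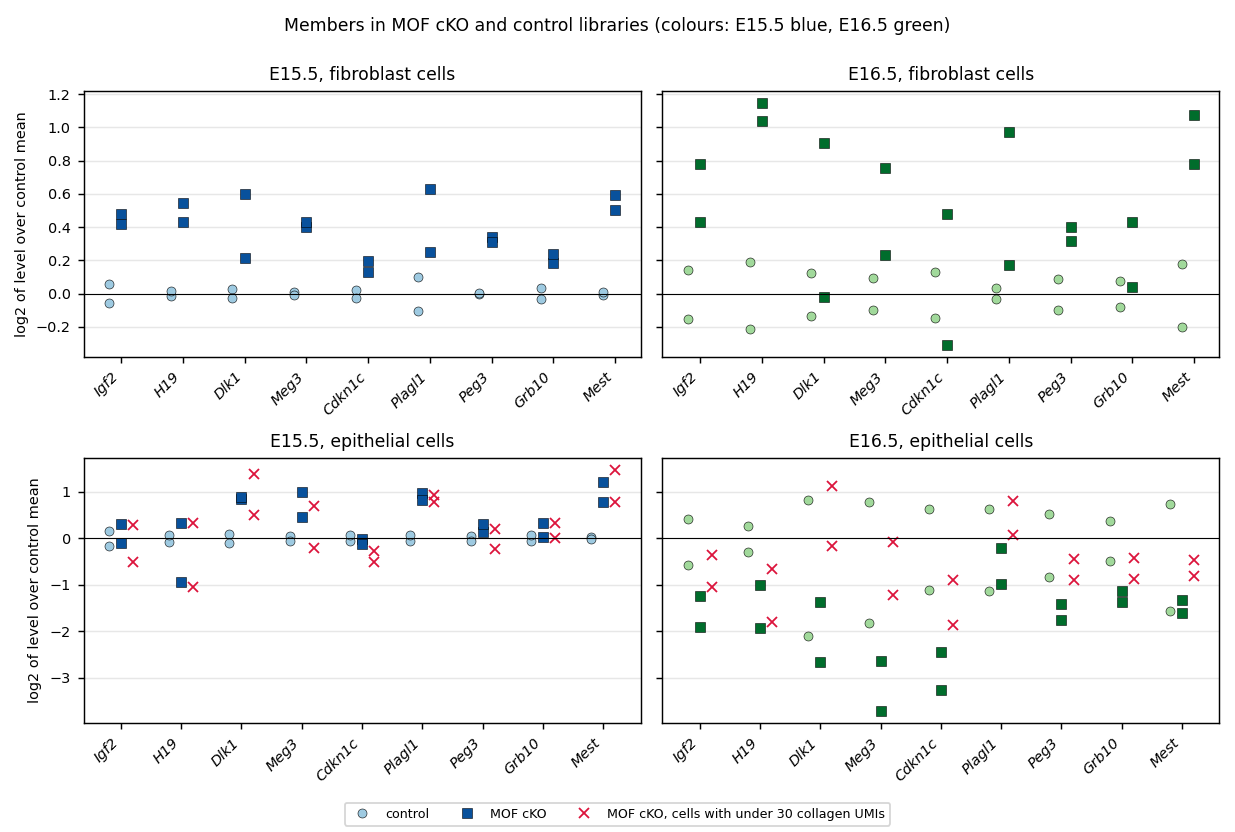
The log2 ratio of each gene's level to the mean of the 2 controls of its stage, in fibroblast and epithelial cells, with 1 circle per control library, 1 square per MOF cKO library and crosses for the cKO epithelial cells with under 30 collagen UMIs set against control cells of the same limit. In fibroblasts all 9 genes lay above the controls at E15.5 and 6 did at E16.5, and in E16.5 epithelium most squares lay below.

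Other imprinted genes and the IGF axis were read beside them. Whether each gene listed as imprinted is so in skin was not checked. At E15.5, 0 of the 38 other imprinted genes tested and 0 of the 20 IGF axis genes tested were called in fibroblasts by edgeR. Their medians were 0.16 and 0.15 on the log2 scale against 0.00 for all genes, and 18 and 7 had an unadjusted p under 0.05. DESeq2 called 7 imprinted genes higher and 3 lower and 1 IGF axis gene each way. At E16.5, 3 of 33 imprinted genes rose and 1 fell in the cKO fibroblasts. Zim1, beside Peg3, rose by 1.10 ± 0.14 (edgeR adjusted p = 0.0293), Mirg, a transcript downstream of Meg3, by 1.05 ± 0.12 (adjusted p = 0.0285), and Snrpn, which shares reads with Snurf and is uncertain, fell by 1.85 ± 0.26. Of 19 IGF axis genes 4 rose and 1 fell. Those that rose included Irs2, an insulin receptor substrate (2.10 ± 0.25, edgeR adjusted p = 0.0285), and the IGF binding proteins Igfbp7 (1.501 ± 0.22) and Igfbp2 (1.36 ± 0.24). Pappa2, a protease that cleaves IGF binding proteins, fell by 0.99 ± 0.14. These calls depended on single libraries and on the fibroblast gate: of 12 alternatives, Zim1, Mirg and Snrpn lost theirs under 4 each, Igfbp7 and Igfbp2 under 5 each, Pappa2 under 3 and Irs2 under 2, and each of the 7 lost it without control replicate 2. With a gate of 100 collagen UMIs and all libraries kept, 0 imprinted genes were called and 1 IGF axis gene rose, and with cells of exactly 1 class 2 imprinted and 2 IGF axis genes rose. The highest edgeR adjusted p of any of them under an alternative was 0.145, and none changed sign.

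In the epithelial class the order of cKO and control differed between stages, a difference that was not tested. At E15.5 both cKO libraries were above both controls for Dlk1, Meg3, Plagl1, Peg3 and Mest, 5 of 9, against 16.9% of 7379 genes (31.8% below). Plagl1 was 24.2 and 26.5 in the controls against 49.5 and 45.02 in the cKO libraries, and Mest was 19.3 and 18.7 against 44.1 and 32.4. Fibroblast RNA moved the same way: Col1a2 in the epithelial class was 295 and 289 in the controls and 518 and 474 in cKO. Among epithelial cells with under 30 collagen UMIs, where 1197 of 7264 genes lay above and 32.8% below, 3 of the 5 stayed above (Plagl1 1.81 times, Mest 2.25 times and Dlk1 2.001 times the control mean), Meg3 and Peg3 overlapped and Cdkn1c lay below at 0.764 times. Dlk1 was low there, at 8.92 and 7.43 in the controls against 11.5 and 21.2 in cKO. Mest was low too, at 9.48 and 8.16 against 24.5 and 15.2, and neither gene is read as expression in this class. The edgeR quasi-likelihood test called 0% of 14625 genes higher and 0% lower, while 1360 had an unadjusted p under 0.05, and DESeq2 called 132. Among the lists, edgeR called 0 of 36 imprinted and 0 of 19 IGF axis genes, with 5 and 4 under 0.05 unadjusted, and DESeq2 called 1 and 0. Without MOF cKO replicate 6, the mosaic animal, 1 cKO library was left, so no call of that fit is read for the lists. The lower and upper quartiles of its log2 fold changes over all genes were -0.53 and 0.44, against -0.30 and 0.26 with all libraries.

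At E16.5 both cKO epithelial libraries were below both controls for H19, Igf2, Cdkn1c, Meg3, Peg3 and Grb10, 6 of 9, against 55.5% of 7330 genes (14% above). H19 was 1312 and 890 in the controls against 289 and 551 in the cKO libraries, and Cdkn1c was 992 and 299 against 67.5 and 119. Control replicate 1 stood apart, with epithelial Col1a2 at 2003 against 333 in replicate 2 and 171 and 259 in cKO. With under 30 collagen UMIs, 5 of the 6 lay below, where 53.6% of all genes did and 13.2% lay above, from 0.405 times the control mean for Cdkn1c over 0.46 for H19 and 0.628 for Igf2 to 0.633 for Peg3 and 0.646 for Grb10, and Meg3 overlapped. The edgeR quasi-likelihood test called 4.68% of 9938 genes higher and 1.14% lower. Of the lists, it called 1 of 23 imprinted genes, the collagen-binding proteoglycan gene Dcn (fell by 1.67 ± 0.30, edgeR adjusted p = 0.0319), and 0 of 17 IGF axis genes, 5 of which had an unadjusted p under 0.05 and 1 a DESeq2 call. Dcn lost its call under 3 of 12 alternatives, which were leaving out either MOF cKO library and keeping cells with under 30 collagen UMIs, with a highest edgeR adjusted p of 0.267. Without control replicate 2, 4 imprinted and 2 IGF axis genes were called lower, and without control replicate 1, 1 of each. Scaling by library size alone moved the median of all genes from -0.11 to -0.71 on the log2 scale here, and levels in CPM carry that shift. Over the alternatives, the fitted log2 value of Meg3 ran from -3.13 to 0.081, that of Peg3 from -1.58 to -0.092 and that of Grb10 from -1.25 to -0.066, so the size of these differences is not settled.

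Pericytes and endothelial cells were read in the same way, beside the cells of each gate that also passed the fibroblast gate. In E15.5 pericytes, 226 to 425 per library, both cKO libraries were above both controls for 6 of 9 genes, for example Plagl1 (32.0 and 32.4 against 42.2 and 50.3) and Peg3 (158.2 and 165.9 against 198.2 and 227.3), where 14.5% of all genes did so and 27.5% lay below. The fibroblast gate also held 77 and 133 of the control pericytes and 221 and 216 of those from cKO. With cells of exactly 1 class, 1 of 9 genes, H19, stayed above and 8 overlapped (14.6% of all genes above).

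In E15.5 endothelial cells 4 genes lay above and 2 below, where 15.3% and 27.4% of all genes did. Meg3 (162.9 and 191.5 against 331.2 and 449.1), Dlk1 (45.1 and 68.1 against 90.1 and 174.6), Cdkn1c and Peg3 lay above, and Igf2 (719.2 and 727.2 against 662.8 and 580.7) and Grb10 (369.6 and 347.4 against 263 and 317.7) below. The fibroblast gate also held 8 endothelial cells of each control against 30 and 27 of the cKO libraries, and Col1a2 in this class was 284 to 323 in the controls and 710.4 to 716 in cKO. With cells of exactly 1 class none of the 9 lay above, Igf2, Cdkn1c and Grb10 lay below (27% of all genes), and 6 overlapped. At E16.5, with 11 to 60 endothelial cells a library, Grb10 (357.3 and 316.5 against 171.7 and 190.6) and Mest (3828 and 2406 against 2038 and 1783) lay below and H19, Dlk1, Meg3 and Peg3 above, where 30% and 17.7% of all genes did. There too, with cells of exactly 1 class, Grb10 and Mest still lay below and the other 7 genes overlapped, where 28.7% of all genes lay below and 19% above. E16.5 pericytes, 14 to 37 a library, overlapped for 8 of 9 genes, and Plagl1 lay above (11.4% of all genes above, 27.6% below). With cells of exactly 1 class Plagl1 overlapped, Grb10 lay above and Meg3 below, as 12.2% and 24.6% of all genes did. No test was run in these classes, and the order with cells of exactly 1 class was added after the values were seen.

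Within fibroblasts the 9 genes were higher in cells with Mfap5, Dpp4 and Pi16 than in cells with Crabp1. Fibroblasts with at least 3 Crabp1 UMIs and none of Mfap5, Dpp4 and Pi16 were compared with fibroblasts with at least 3 of Mfap5, Dpp4 and Pi16 and no Crabp1, in the 9 libraries with at least 10 cells on each side. Crabp1 is known from the upper dermis in embryonic skin, and Mfap5 and Pi16 from deeper and fascial fibroblasts. The place of these cells in the skin was not checked. All 9 genes were lower in the Crabp1 fibroblasts in 9 of 9 libraries, and the edgeR quasi-likelihood test with library as a block called each of them, where it called 21.3% of 11374 genes lower and 25.6% higher. This division of cells was no part of how the genes were chosen, but levels in whole fibroblasts were.

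Plagl1 differed most, with 69.5 to 182.7 CPM in Crabp1 fibroblasts (median 84.1) and 780.9 to 1146 in the Mfap5, Dpp4 and Pi16 fibroblasts (median 979). Its log2 difference, Crabp1 side minus the other, was -3.37 ± 0.11 (SE, edgeR adjusted p = 4.55e-11). Mest was 76.8 to 390.7 (median 153.3) against 1181 to 1957 (median 1598), a difference of -3.34 ± 0.24 (edgeR adjusted p = 9.14e-08). For both genes the ranges over libraries of the 2 kinds of cell did not meet. The Mfap5, Dpp4 and Pi16 cells were 0.638% to 1.75% of fibroblasts at E15.5, 1.54% to 7.50% at E16.5 and 15.9% and 6.62% at E17.5.

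Dlk1 was lower by 2.67 ± 0.17 and Igf2 by 2.36 ± 0.18 on the log2 scale in Crabp1 fibroblasts, and H19 by 2.05 ± 0.19, with edgeR adjusted p of 2.15e-08, 1.25e-07 and 8.42e-07. Igf2 was 213.1 to 946.8 on the Crabp1 side and 1392 to 2691 on the other, without overlap. H19 was 335.2 to 3156 against 1339 to 5721, and the ranges overlapped through E16.5 MOF cKO replicate 2, the highest on the Crabp1 side. Cdkn1c (-1.88 ± 0.086), Meg3 (-1.61 ± 0.12), Grb10 (-1.56 ± 0.074) and Peg3 (-0.70 ± 0.10) followed, the last with an edgeR adjusted p of 7.24e-05. The median of the 9 was -2.05 and that of all genes 0.05. The Mfap5, Dpp4 and Pi16 side also held more of the 4 pericyte check genes, 163.8 to 252.7 against 46.4 to 85.0, in 9 of 9 libraries, while Pdgfra was higher on the Crabp1 side in 9 of 9. The part of pericyte cells in the differences between the 2 sides was not tested.

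Of 29 other imprinted genes tested in this division, 18 were lower in Crabp1 fibroblasts and 4 higher. Magel2, a ubiquitin ligase partner, was lower by 2.46 ± 0.20, and the retrotransposon-derived genes Rtl1, at the Dlk1 locus, and Peg10 by 2.41 ± 0.28 and 2.41 ± 0.17. Nnat, encoding a small membrane proteolipid, went the other way (2.02 ± 0.30, edgeR adjusted p = 1.00e-04), as did Inpp5f (0.50 ± 0.13) and Mcts2 (0.49 ± 0.16). In the IGF axis 11 of 19 were lower and 2 higher. The binding protein genes Igfbp6 and Igfbp4 differed by -7.46 ± 0.23 and -4.30 ± 0.18 and the ligand Igf1 by -2.56 ± 0.32, while Igfbp5 (1.19 ± 0.38) and the protease Pappa (0.81 ± 0.23) were higher in Crabp1 fibroblasts. The highest edgeR adjusted p of these 5 IGF axis genes was 0.0190. Igfbp5 lost its call under 7 of 19 alternatives, with a highest edgeR adjusted p of 0.0580, and Inpp5f and Mcts2 lost theirs under 1 each.

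Read within each kind of fibroblast, both E15.5 MOF cKO libraries were above both controls for 8 of 9 genes in the Crabp1 cells, Cdkn1c being the exception, where 27.3% of all genes of at least 10 CPM were. Among the few Mfap5, Dpp4 and Pi16 cells, 31 to 129 per library, Plagl1 and Mest, 2 of 9, were above, with 21.8% of all genes. In cycling fibroblasts the cKO libraries were above both controls for 9 of 9 genes at E15.5 (26% of all genes) and for 8 of 9 at E16.5 (14.3%), Cdkn1c overlapping, and in non-cycling ones for 8 (24.6%) and 3 (14.1%). At E16.5 only MOF cKO replicate 2 had enough cells of both kinds, and its Crabp1 cells were above both controls for 9 of 9 genes, where 23.9% of all genes were above and 49.3% below. Its Mfap5, Dpp4 and Pi16 cells were above for 3 of 9, Plagl1, Grb10 and Mest, and overlapped for 6, where 26.7% of all genes were above and 36.1% below. The genes had been chosen on levels over the same cells together, so nothing is read from these counts.

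**Figure D3:**
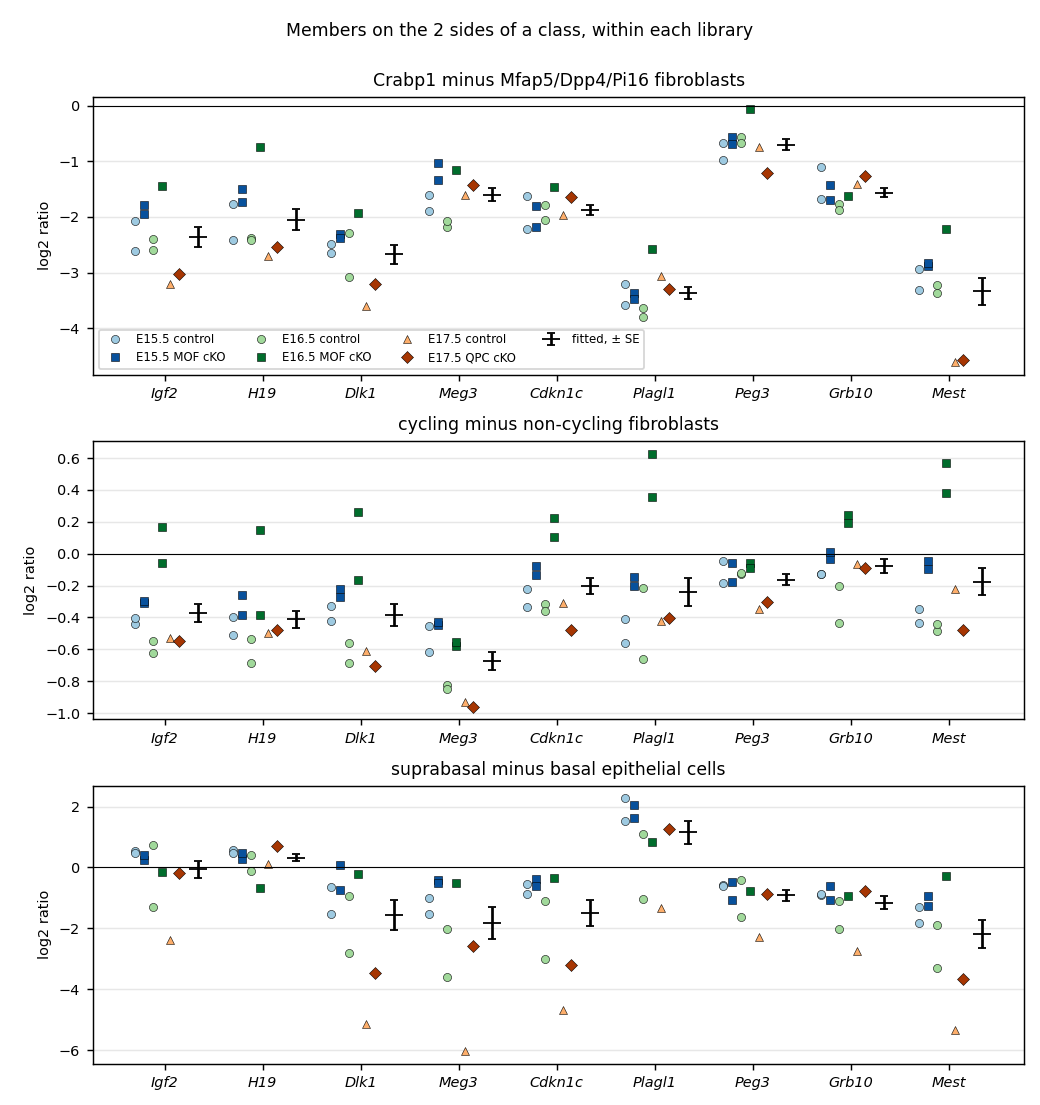
The log2 ratio of each gene between the 2 sides of 3 divisions of cells, with 1 point per library and the fitted value ± SE as a black bar: Crabp1 against Mfap5, Dpp4 and Pi16 fibroblasts, cycling against non-cycling fibroblasts, and suprabasal against basal epithelial cells. All points of the first division lay below 0, and those of the second were nearer to 0 with MOF cKO libraries of E16.5 above 0 for several genes.

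Cycling fibroblasts, those with at least 5 UMIs over 10 G2/M genes such as Mki67 and Top2a, held less of 7 of the 9 genes than non-cycling ones with at most 1. The edgeR quasi-likelihood test with library as a block called 33.4% of 13020 genes lower and 29.3% higher. Meg3 was lower in cycling cells in 10 of 10 libraries, with 1704 to 5298 against 2820 to 7775, a log2 difference of -0.67 ± 0.057 (edgeR adjusted p = 6.60e-08). H19 (-0.41 ± 0.053), Dlk1 (-0.38 ± 0.070), Igf2 (-0.37 ± 0.056), Plagl1 (-0.24 ± 0.088), Cdkn1c (-0.20 ± 0.050) and Peg3 (-0.16 ± 0.035) were also lower. Cdkn1c, the cell cycle inhibitor of the set, was among the smaller of these differences. Mest (-0.17 ± 0.082, edgeR adjusted p = 0.0757) and Grb10 (-0.08 ± 0.043, edgeR adjusted p = 0.128) were not called. With control libraries only, edgeR called all 9 genes lower, as it did 3147 of 12522 genes. Of 20 alternatives, Plagl1 lost its call under 5 (highest edgeR adjusted p = 0.0833), among them leaving out E15.5 control replicates 2 or 3, E16.5 control replicate 2 or the E17.5 control, while Mest was called under 8 and Grb10 under 5. The collagen gene Col1a2 was lower in cycling cells in 10 of 10 libraries too, and cycling cells were deeper. The 4 endothelial check genes were higher in cycling cells in 9 of 10 libraries (20.4 to 51.1 against 11.9 to 23.0). In the lists, 17 of 34 other imprinted genes were lower and 3 higher, for example Mirg (-0.62 ± 0.076) and Blcap (-0.57 ± 0.051) against Commd1 (0.37 ± 0.032) and Usp29 (0.22 ± 0.045). In the IGF axis 12 of 19 were lower and 3 higher, for example Igfbp4 (-0.80 ± 0.14), Igf1 (-0.66 ± 0.10) and Igfbp3 (-0.66 ± 0.093) against Igf2bp1 (0.12 ± 0.044), which lost its call under 11 of 20 alternatives. The 3 higher IGF axis genes became 1 with cells of exactly 1 class and 0 with a gate of 100 collagen UMIs, and Igfbp7, one of the 3 at 0.55 ± 0.089, was -0.026 and -0.0097 there.

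The E16.5 libraries parted in this division by genotype. Mest was 358.5 and 313.5 in cycling cells of the controls against 501.5 and 425.1 in their non-cycling cells, and 865.1 and 987.9 against 583.7 and 758.2 in MOF cKO. Plagl1 was 183.9 and 165 against 213.7 and 261.7 in the controls, and 295.3 and 456.2 against 190.9 and 357.1 in MOF cKO. In both genes, cycling cells were lower in each control and higher in each cKO library, and the same held for Cdkn1c and Grb10. Igf2, H19 and Dlk1 were higher in cycling cells of cKO replicate 1 and lower in replicate 2, with the controls lower.

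The cycling effect of cKO minus that of control was fitted within each stage with library as a block. The fit was added after these opposite signs were seen, in genes chosen on fibroblast levels, so its values describe the 9 genes and no call of theirs is read. At E16.5 the log2 difference was 0.93 ± 0.12 (SE) for Plagl1, 0.91 ± 0.089 for Mest, 0.65 ± 0.087 for Dlk1, 0.62 ± 0.084 for Igf2 and 0.54 ± 0.11 for Grb10. It was 0.49 ± 0.068 for Cdkn1c, 0.47 ± 0.10 for H19, 0.26 ± 0.062 for Meg3 and 0.04 ± 0.083 for Peg3. Over all genes the edgeR quasi-likelihood test called 2.11% of 11313 (184 higher, 55 lower) at E16.5. At E15.5 it called 0% of 14513 genes, of which 882 had an unadjusted p under 0.05, and the Mest difference was 0.31 ± 0.043.

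The kinds of fibroblast moved with these values. Mfap5, Dpp4 and Pi16 cells were 2.22% and 2.90% of cycling and 7.89% and 7.23% of non-cycling fibroblasts in the E16.5 controls, against 2.25% and 3.90% of cycling and 1.45% and 6.05% of non-cycling ones in MOF cKO. Among Crabp1 fibroblasts alone the difference was 0.93 for Mest, 0.53 for Plagl1 and 0.36 for Cdkn1c. Cycling cells, fewer in cKO as given above, numbered 89 and 154 there.

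In the epithelium, suprabasal cells (Krt1 and Krt10 together at least 30 UMIs) were compared with basal cells (under 3) in 9 libraries. Hair germ and follicle cells were not set apart from the basal cells. The edgeR quasi-likelihood test with library as a block called 6 of the 9 genes lower and 2 higher, where it called 26.7% of 10353 genes lower and 22.3% higher. Plagl1 was higher in suprabasal cells in 7 of 9 libraries, at 37.6 to 133.8 (median 73.1) against 18.2 to 215.4 (median 31.8), a log2 difference of 1.15 ± 0.37 (edgeR adjusted p = 0.0207). H19 was higher in 7 of 9 too (0.33 ± 0.12, edgeR adjusted p = 0.0356). The exceptions for Plagl1 were the E16.5 control replicate 1 and the E17.5 control, in which basal Col1a2 was 1933 and 8394 CPM against 220.6 and 270.9 on the suprabasal side, and those for H19 were the same E16.5 control and MOF cKO replicate 2. Neither call was stable. Of 19 alternatives H19 lost its call under 9, with 0.26 to 0.60 and a highest edgeR adjusted p of 0.0916, and Plagl1 under 4, with edgeR adjusted p of 0.384 in control libraries only. Without E15.5 control replicate 3, MOF cKO replicate 5 or MOF cKO replicate 6, neither gene was called (Plagl1 edgeR adjusted p = 0.0564, 0.0501 and 0.0586), and H19 was also lost without E15.5 control replicate 2, E16.5 control replicate 2 or the QPC cKO library.

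Grb10 was lower in suprabasal cells in 9 of 9 libraries (16.49 to 65.4 against 47.6 to 115.4, -1.15 ± 0.21, edgeR adjusted p = 6.45e-04), as were Cdkn1c (-1.49 ± 0.44) and Peg3 (-0.91 ± 0.18). Mest (-2.19 ± 0.46), Meg3 (-1.83 ± 0.51) and Dlk1 (-1.56 ± 0.49) were lower as well. As a share of the fibroblast level, these are the genes near Col1a2, Lum and Pdgfra in this class. Dlk1 lost its call without E16.5 control replicate 1 (edgeR adjusted p = 0.0518). Fibroblast check genes were higher on the basal side in 9 of 9 libraries. With under 30 collagen UMIs, Igf2, which did not differ over all cells (-0.06 ± 0.28, edgeR adjusted p = 0.881), was higher in suprabasal cells by 0.60 (edgeR adjusted p = 0.00234), and 6 of the 9 were lower. Of the other imprinted genes 12 of 24 were lower and 2 higher, led by Dcn (-2.87 ± 0.23), Ndn (-1.63 ± 0.48) and Zdbf2 (-1.48 ± 0.35) against Blcap (0.67 ± 0.12) and Copg2 (0.57 ± 0.095). Ndn lost its call in control libraries only (edgeR adjusted p = 0.0765). Of the IGF axis 11 of 17 were lower and Stc2, a secreted glycoprotein that inhibits the protease of IGF binding proteins, was higher (2.44 ± 0.22, edgeR adjusted p = 3.59e-06).

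Cell by cell, the levels of these genes varied together within fibroblasts. Over the fibroblast cells of each library, averaged over 10 libraries, the correlation of log2 scaled counts was above 0 for 36 of 36 pairs, with a median r of 0.508. Igf2 and H19 had the highest (r = 0.791), and among 1861 genes each was the other's nearest. The pairs of Dlk1 and Igf2 (0.732), Igf2 and Cdkn1c (0.731) and H19 and Cdkn1c (0.709) followed. Dlk1 and Igf2 lie on different chromosomes, and the latter pairs on chromosome 7. Dlk1 was the nearest gene to Meg3 (0.565), and Igf2 the nearest to Cdkn1c, Dlk1 and Grb10. The lowest pair was Peg3 and Grb10 (0.297). Cells of 1 library share depth and preparation, so these r are a description. The correlation of each gene with the log2 depth of the cell had medians of 0.105 to 0.292 over libraries, and among cells of middle depth the library medians of the 36 pairs were 0.455 to 0.619, against 0.468 to 0.605 over all cells.

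Averaged over libraries, the correlations were lower within a kind of fibroblast, but not in every library. In the Mfap5, Dpp4 and Pi16 fibroblasts of QPC cKO (222 cells) the median was 0.633, against 0.498 over all its fibroblasts. In the E17.5 control (280 cells) it was 0.505 against 0.525. The mean of the library medians was 0.520 over all fibroblasts, 0.391 in Crabp1 fibroblasts and 0.333 in Mfap5, Dpp4 and Pi16 fibroblasts, the last over 7 libraries and 918 cells. The library medians were 0.242 to 0.476 in Crabp1 fibroblasts, with at least 33 of 36 pairs above 0 in each library, and 0.056 to 0.633 in Mfap5, Dpp4 and Pi16 fibroblasts, with as few as 23. In non-cycling fibroblasts they were 0.470 to 0.618. With a gate of 100 collagen UMIs and cells of 1 class only they were 0.464 to 0.631.

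**Figure D4:**
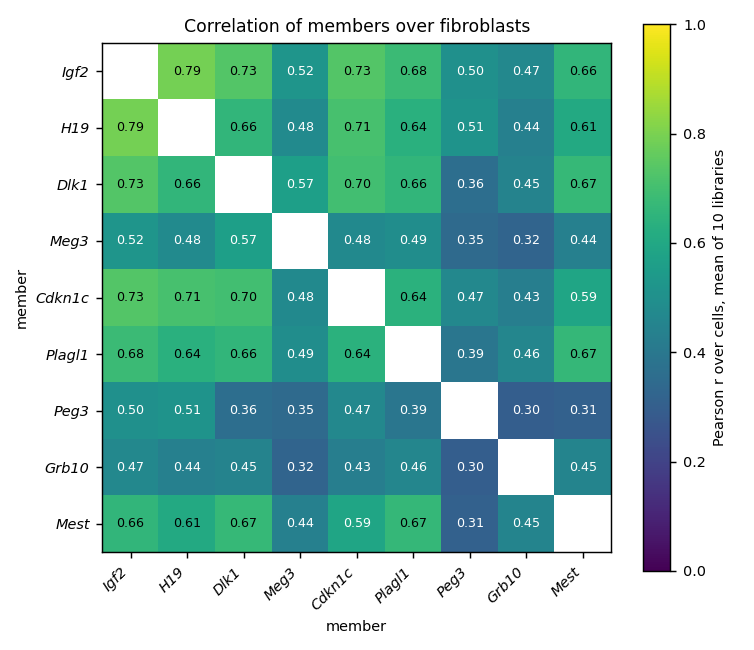
Mean correlation over fibroblast cells of 10 libraries for each pair of the 9 genes, as a colour grid with the values. Igf2, H19, Dlk1 and Cdkn1c formed the highest block and Peg3, Grb10 and Meg3 had the lower values.

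The genes outside the set whose levels most resembled its mean over fibroblast cells, among 1862 genes of at least 50 CPM in every library, were Agtr2, an angiotensin receptor (mean r = 0.799 over 10 libraries), Postn, encoding the matrix protein periostin (0.787), Itm2a (0.750), the kinase gene Nrk (0.714), Thbs2 (0.706), the proteoglycan gene Vcan (0.695), Ogn (0.694) and Col12a1 (0.693). The median gene had r = -0.03 and the 99th percentile 0.664. At the other end, named after the values were seen, stood Cav1 (-0.580), Mef2c (-0.576), Tcf4 (-0.572) and Zeb2 (-0.569). Over the 40 points of 10 libraries and 4 classes, with 6194 genes, the closest genes outside the set were Plod1 (r = 0.925), Sparc (0.924), Lhfpl2 and Pdia5 (both 0.914) and Plpp3 (0.910). Those points share libraries and differ mostly by class.

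At E17.5 the fibroblasts of the QPC cKO library held less of all 9 genes than those of the control library, with 1 library each, so there is no replicate check and no test. Plagl1 was 389.9 in the control and 182.6 in QPC cKO, a log2 ratio of -1.09 (95% counting interval -1.13 to -1.06). Dlk1 was 3668 against 2033 (-0.85), Igf2 841.5 against 467.3 (-0.85), Mest 671.1 against 377.5 (-0.83) and H19 1112 against 657 (-0.76). Cdkn1c was 1994 against 1305, Meg3 3563 against 2734, Peg3 1066 against 919 and Grb10 187.1 against 172.3. The fall was thus over 1.5-fold for 6 of the 9, where 3.97% of 8762 genes were over 1.5-fold lower and 4.28% higher, and the genes had been chosen on this contrast. Of all genes of at least 10 CPM, 33.6% were lower by any amount. Intervals cover counting error only.

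The kinds of fibroblast moved with the fall in the 9 genes. Mfap5, Dpp4 and Pi16 cells were 15.9% of fibroblasts in the control and 6.62% in QPC cKO, and Crabp1 cells 18.0% and 28.0%. Within Crabp1 cells 5 of the 9 genes were higher in QPC cKO and 4 lower, and within Mfap5, Dpp4 and Pi16 cells 3 were higher and 6 lower, where 51.2% and 61.2% of all genes were higher. For Mest, the levels in control and QPC cKO were 76.8 and 81.6 in Crabp1 cells and 1900 and 1957 in Mfap5, Dpp4 and Pi16 cells. QPC cKO was thus slightly the higher on each side, where it was lower over all fibroblasts. Most fibroblasts of both libraries were on neither side, and no interval is given for the sides. Plagl1 was lower in both, 115.3 against 78.5 and 975.6 against 783.9.

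The other classes of E17.5 were read one by one. In pericytes 5 were lower and 4 higher with a median log2 ratio of -0.00, where 46.3% of all genes were lower and their median was 0.03, and the intervals overlapped for Dlk1 (2618 against 2613), Mest (284.5 against 284.8), Plagl1 and Peg3. Igf2 (250.7 against 149.5) and H19 (258.3 against 169) were lower there. Of these pericytes, 76 in the control and 125 in QPC cKO were also in the fibroblast gate, and with cells of exactly 1 class the median was -0.42. There too 5 were lower and 4 higher, where 45.6% of all genes were lower. Dlk1 turned to 2162 against 2230, and Peg3 turned from 46.7 against 62.2 to 78.1 against 40.9. Plagl1 was 54.2 against 16.8 and Mest 56.7 against 97.6 in those cells. In endothelial cells, 55 and 60, 6 were higher and 3 lower (53% of all genes higher), with Meg3 at 402.8 against 1241 and Dlk1 at 238.2 against 653.3 as the largest ratios. Of these, 1 cell in the control and 11 in QPC cKO were also in the fibroblast gate, and with cells of exactly 1 class Meg3 was 211.6 against 213.5 and Dlk1 55.1 against 58.1. In those cells 8 genes were higher and 1 lower (51.1% of all genes higher), Igf2 turning from 1265 against 980.5 to 1043 against 1136 and H19 from 1533 against 1116 to 1268 against 1303, and the median of the 9 was 0.12 instead of 0.36. In the epithelial class all 9 were lower with a median of -2.45, where 45.3% of all genes were lower with a median of 0.04, beside Col1a2 at 7181 in the control and 1094 in QPC cKO. Among epithelial cells with under 30 collagen UMIs 8 stayed lower (58.6% of all genes), from 0.174 times the control for Mest to 0.891 for Grb10, and Peg3 was 1.10 times. The limit left 1783 of 3069 control and 1060 of 1162 QPC cKO cells, with Dlk1 still at 163.6 and 29.2. Mest, Dlk1 and Meg3 are not read as expression in this class. The part of fibroblast RNA that remained in these cells was not tested.

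**Figure D5:**
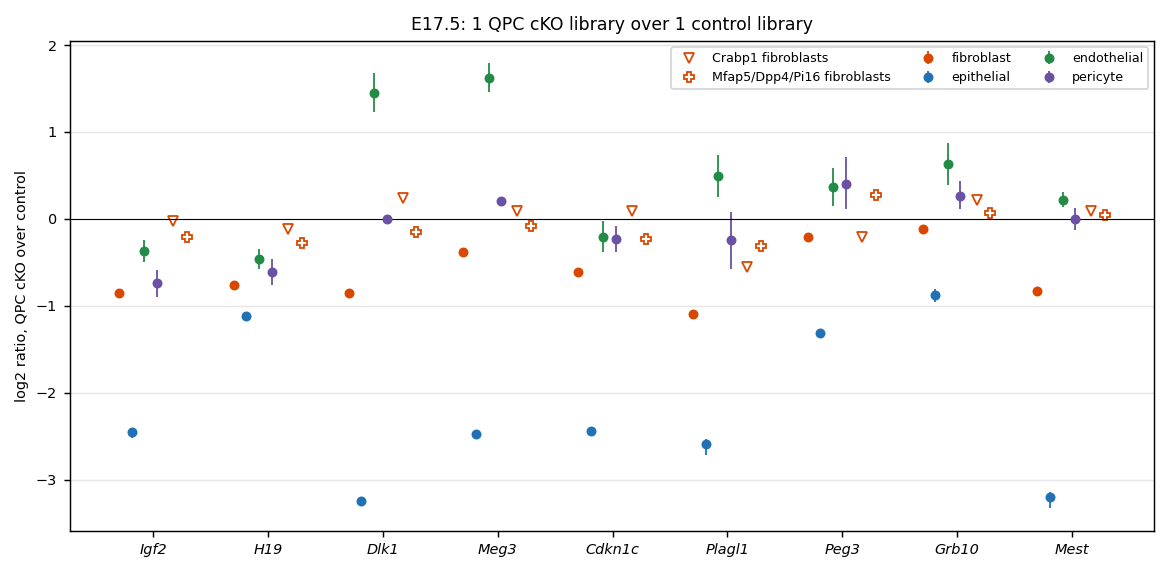
The log2 ratio of QPC cKO to control at E17.5 for each gene in the 4 classes (filled points, with bars as 95% counting intervals) and in Crabp1 (open triangles) and Mfap5, Dpp4 and Pi16 fibroblasts (open crosses). Fibroblast and epithelial points all lay below 0, and pericyte, endothelial and open points on both sides.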

How the data were processed

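Single-cell RNA-seq of back skin was available from 10 libraries, grouped by their labels. The authors deposited UMI counts per gene and barcode as filtered matrices from Cell Ranger 1.3.1 and 6.1.2 (mm10), per the labels, with 27998 or 32285 genes. No doublet caller was run. Cells with over 1000 and under 6000 genes and under 10% mitochondrial UMIs were kept, and classes came from the marker gates given above. Counts were summed per class and library and scaled to CPM (UMIs per 1000000). MOF cKO was compared with control, and the divisions of cells with library as a block, with edgeR 4.0.16 in R 4.3.3 (quasi-likelihood, TMM scaling, filterByExpr, Benjamini-Hochberg over all genes, threshold 0.05) after a test on simulated data. DESeq2 1.42.0, other scalings, filters and gates, and each library left out were alternatives. Total UMIs per library ran from 13609345 to 203392303, and counting intervals are 95% Poisson intervals. The members and the lists of 40 other imprinted and 21 IGF axis genes (Igf2r in both) were chosen with earlier results of these data known. Genes with values beyond the members were the 3 most changed per direction among called list genes of at least 10 CPM, and the 8 genes most like the members' mean.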

Additional observations from a re-analysis of the deposited data

Results flagged for a closer look

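For Meg3 and Peg3 in the epithelial class, the MOF cKO libraries lay above the controls at E15.5 and below them at E16.5. The mean of the MOF cKO libraries over that of the controls was 1.69 for Meg3 and 1.16 for Peg3 at E15.5, and 0.118 and 0.336 at E16.5, with every library of a stage on the same side. Against control replicate 2 alone, without replicate 1, the E16.5 ratios were 0.417 and 0.602. Such an order was common at E16.5, where both cKO libraries lay below both controls for 55.5% of 7330 genes. At E15.5 both lay above for 16.9% of 7379 genes. Scaled by library size alone, as CPM is, a gene in the middle of those fitted stood at -0.71 (log2) at E16.5. Lying below there was therefore not particular to Meg3 and Peg3. The difference between stages was not tested, since the kit differed too. Col1a2 in this class was 295 and 289 in the controls against 518 and 474 in cKO at E15.5, and 2003 and 333 against 171 and 259 at E16.5, and its part was not tested. Meg3, as a share of its fibroblast level, was near Col1a2, Lum and Pdgfra in this class. The E16.5 cKO values rested on 30 and 39 cells. Among cells with under 30 collagen UMIs, Meg3 overlapped at both stages, and Peg3 overlapped at E15.5 and lay below at E16.5. In those E16.5 cells 53.6% of genes lay below.

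Cycling against non-cycling fibroblasts gave opposite signs in all MOF cKO and all control libraries of E16.5 for 4 genes. The mean log2 ratio was 0.16 in cKO and -0.34 in controls for Cdkn1c, 0.49 and -0.44 for Plagl1, 0.22 and -0.32 for Grb10 and 0.47 and -0.46 for Mest. The difference was not tested independently of these values.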

How the results depend on the processing

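All 9 genes kept their call and direction between Crabp1 and Mfap5, Dpp4 and Pi16 fibroblasts under all 19 alternatives (5336 genes called, 4589 to 5168 with a library left out), and the cycling division called 8159 genes (7459 to 8302). The MOF cKO comparisons depended on single libraries. In E15.5 fibroblasts (0 genes) edgeR called 222 without the filter and DESeq2 494, and leaving out a library gave 0 to 114, the highest without MOF cKO replicate 6. In E16.5 fibroblasts (583) the counts were 1752 without the filter, 950 with DESeq2, 132 with a gate of 100 UMIs and 0 to 369 with a library left out (369 and 0 without control replicates 1 and 2, 138 and 187 without MOF cKO replicates 1 and 2). Scaling by library size alone gave 346 higher and 491 lower there (305 and 278 otherwise) and 263 and 549 in E16.5 epithelium (465 and 113). In E15.5 epithelium (0) the counts were 1 without the filter, 132 with DESeq2 and 1 to 7015 with a library left out (14 without MOF cKO replicate 5, 7015 without replicate 6, 1 and 3 without control replicates 2 and 3). In E16.5 epithelium (578) they were 2007 without the filter, 316 under 5% mitochondrial UMIs, 290 with under 30 collagen UMIs and 39 to 1112 with a library left out (39 and 175 without MOF cKO replicates 1 and 2, 1112 without control replicate 2). An arm left with 1 library was assumed to vary like the other. The suprabasal division called 5071 genes, 3303 in control libraries only and 4280 to 5268 with a library left out.

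The replicate block gave 576 genes in E16.5 fibroblasts and 549 in epithelium. The study describes 2 pairs of E16.5 samples and littermate controls. Whether the replicate numbers follow these pairs cannot be told from 2 pairs (r = -0.021 and -0.017), and the main fit used no pairing.

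The cycling effect at E15.5 (0 genes) gave 36 without the filter, 10 under 5% mitochondrial UMIs, 6 with a gate of 100 UMIs, 4 without shared barcodes, 4 among Crabp1 fibroblasts and 4 to 95 with a library left out (39 and 95 without MOF cKO replicates 5 and 6). At E16.5 (239) it gave 114 among Crabp1 fibroblasts and 178 to 328 with a library left out. These alternatives and the limit on collagen were chosen after seeing the data. The E17.5 medians moved to -0.70 under 5% mitochondrial UMIs and -0.71 without shared barcodes in fibroblasts (-0.76), to -2.32 with a pseudocount of 10 and -2.24 under 5% in epithelium (-2.45), to 0.12 with cells of 1 class in endothelial cells (0.36), and to 0.078 under 5% and -0.42 with cells of 1 class in pericytes (-0.00). Igfbp7, higher in cycling cells by 0.55, was -0.026 with cells of 1 class and -0.0097 with a gate of 100 UMIs, and suprabasal Igf2 was 0.60 with under 30 collagen UMIs. Of 90 levels per class, 24 endothelial, 12 pericyte and 1 epithelial moved over 1.5-fold with cells of 1 class, 29 endothelial (up to 11.2-fold) with an endothelial gate of 2 summed UMIs, 7 endothelial, 7 epithelial and 1 pericyte under 5% mitochondrial UMIs, and 40 epithelial with the limit on collagen. Beyond the settings that give their own reason, the cause was not tested. The E16.5 endothelial and pericyte levels rested on 11 to 60 cells a library.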
